A study of Homo sapiens with 18 samples.

Results

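Histone genes encode the proteins around which nuclear DNA is wound. They were taken here as the probe sets with a single gene symbol in the platform annotation that begins with H1-, H2AC, H2BC, H3C, H4C, H2AZ or H3-, and H2AX was left out of them. This gave 50 of the 22283 probe sets of the HGU133A array, which stand for 46 genes of the 11963 that have a probe set of their own. By family there were 7 probe sets of H1, 13 of H2A, 13 of H2B, 9 of H3 and 8 of H4. The symbols cannot separate near-identical copies. Of the members 8 carry the suffix x_at and 9 the suffix s_at, which mark probe sets that can hybridise with more than 1 transcript. On the GRCh38.p14 annotation 38 of the genes lie on chromosome 6, between positions 26017032 and 27893891, 4 lie on chromosome 1 and 1 each on chromosomes 3, 4, 7 and 21.

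RNA came from MSTO-211H, an established human pleural mesothelioma cell line, which is a single line and stands for no other tumor. Unsynchronized cells were plated 16 h before the drugs were added, and were then left untreated or exposed to piroxicam at 760 µM (P), a non-steroidal anti-inflammatory drug, to cisplatin at 4.5 µg/mL (C), which crosslinks DNA, or to both at these doses (P/C). The 8 h groups held 2 arrays apiece, numbered replicate 1 and replicate 3. At 24 h there were 2 untreated arrays (replicates 1 and 2), 3 of P, 3 of C and 2 of P/C (replicates 1 and 3). The paper calls the replicates biological, while the labels do not say that they were separate cultures, so the p-values measure the spread between these arrays. Of 10 mesothelial and mesothelioma markers, KRT8, KRT18 and VIM had a mean signal of at least 100, and mesothelin (MSLN) and calretinin (CALB2) were near background at log2 means of 2.30 and 3.49. None of 5 leukocyte and erythroid and none of 5 endothelial and stromal markers reached 100. All values are log2 GCRMA signals, and array medians lay between 2.72 and 2.82. In the tested probe sets, centred on their means, 6 of the 18 arrays correlated best with an array of their own group and 17 with one of their own time. The untreated array of replicate 2 at 24 h, a control of every comparison with untreated cells at that time, correlated best with a C array at 8 h. The C array of replicate 1 at 24 h correlated best with an untreated array, the C array of replicate 3 with a P/C array, the P/C array of replicate 1 with a C array and the P/C array of replicate 3 with a P array. Values without single arrays are given where they differ most.

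Most histone genes are replication-dependent. They are transcribed in S phase from clusters of short genes without introns, and their mRNA ends in a stem-loop rather than a poly(A) tail, so labelling that starts from the poly(A) tail recovers them poorly. The labels name the labelling kit's maker but not the primer used, and its part in the values was not tested. The replication-independent variants, among them H2A.Z (genes H2AZ1 and H2AZ2), H3.3 and the linker histone H1.10 (H1-10), have ordinary polyadenylated mRNAs. H2A.Z replaces H2A in nucleosomes at promoters and enhancers.

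The promoters of the families hold different motifs. RefSeq promoters of 300 bases (250 before and 50 after the start, GRCh38.p14) were at hand for 43 of the 46 genes and for 27305 genes in all. The octamer ATTTGCAT, a classic element of H2B promoters, was present on either strand in 8 of 11 H2B and 6 of 8 H2A cluster promoters, in none of the 6 H1, 7 H3 and 7 H4 promoters and in none of the 4 replication-independent ones, against 1.8% of all promoters. Some H2A and H2B genes are close neighbours, as H2AC14 (end at 27814777) and H2BC14 (from 27815022). Their windows may share bases, so the H2A and H2B counts may not be independent. The letters CCAAT were found in 37 of the 43 promoters (86.0%, against 35.7% of all) and TATAAA in 28 (65.1%, against 12%). Of the 7 H4 promoters 2 held CCAAT. The letters TTTGAA or TTCGAA, written for the cell cycle genes homology region, were found in 16 (37.2%, against 16.6%), including both H2A.Z genes. The promoters of the 3 genes that passed the signal filter are printed below, 5′ to 3′ on the strand of the gene, to set the H2A.Z pair beside an H2B cluster gene. Capitals mark these 4 motifs on either strand. The windows are chr4:99950226-99950525 for H2AZ1, chr7:44848038-44848337 for H2AZ2 (its first listed start) and chr6:27146809-27147108 for H2BC12, all on the minus strand.
H2AZ1: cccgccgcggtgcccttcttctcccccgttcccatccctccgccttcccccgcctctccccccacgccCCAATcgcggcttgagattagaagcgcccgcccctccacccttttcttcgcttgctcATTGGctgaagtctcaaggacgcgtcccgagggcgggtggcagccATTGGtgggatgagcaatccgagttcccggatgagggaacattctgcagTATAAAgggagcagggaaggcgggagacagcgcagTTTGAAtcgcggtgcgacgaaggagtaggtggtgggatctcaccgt
H2AZ2: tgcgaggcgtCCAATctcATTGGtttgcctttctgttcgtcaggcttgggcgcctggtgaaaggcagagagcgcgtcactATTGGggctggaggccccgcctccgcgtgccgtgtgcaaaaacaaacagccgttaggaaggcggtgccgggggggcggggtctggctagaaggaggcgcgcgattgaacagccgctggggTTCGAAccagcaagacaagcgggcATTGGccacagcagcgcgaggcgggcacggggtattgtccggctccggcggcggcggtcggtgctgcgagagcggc
H2BC12: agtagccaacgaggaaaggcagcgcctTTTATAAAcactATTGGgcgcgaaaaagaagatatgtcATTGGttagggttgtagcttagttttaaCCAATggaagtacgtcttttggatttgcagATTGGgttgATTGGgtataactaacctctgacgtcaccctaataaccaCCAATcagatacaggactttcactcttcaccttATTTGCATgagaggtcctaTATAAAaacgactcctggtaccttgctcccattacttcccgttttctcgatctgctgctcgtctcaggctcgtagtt
The H2AZ1 window holds a TATAAA at -31 and a TTTGAA at 4, counted from the start, while the H2AZ2 window holds no TATAAA and a TTCGAA at -50. The H2BC12 window holds the octamer at -46 and a TATAAA at -27, with CCAAT in either orientation at 6 places. The pair of TATAAA matches near its 5′ end overlap each other. A match of letters is a description and not a binding site.

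Only a few members gave a signal well above background. Of the 50 probe sets 39 had a mean below the highest array median, and 42 stayed under a signal of 100 (log2 6.64) on every array. The signal and variability filter of the study's methods was passed by 5 members, namely both probe sets of H2AZ1, 2 of the 3 of H2AZ2, and the H2B cluster gene H2BC12. These 5 are not all members, and only they entered the filtered fit. The median of the mean signals was 2.33 in H1, 2.64 in H2A, 2.25 in H2B, 1.72 in H3 and 1.93 in H4. The next brightest H1 member, H1-1, ranged from 2.31 to 2.94 with a median of 2.59 over the 18 arrays. In H3 the brightest were H3C2 (1.96 to 2.56, median 2.28) and the probe set of H3-3A, which encodes H3.3 (1.74 to 2.54, median 1.97). In H4 they were H4C9 (2.72 to 3.56, median 3.01) and H4C11 (2.03 to 2.95, median 2.34). The H3-3A probe set does not stand for all H3.3 transcripts, since brighter probe sets carry several symbols and are outside the rule. All of these members lie near the array medians and show no order between genes, since signals of different probe sets are not on 1 scale. Of the 46 gene models 38 are shorter than 1000 bases. Of the 5 genes with a probe set that reached 100 on at least 1 array, H2BC12L is shorter, and H1-10, H2AZ1, H2AZ2 and H2BC12 are at least as long.

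**Figure D1:**
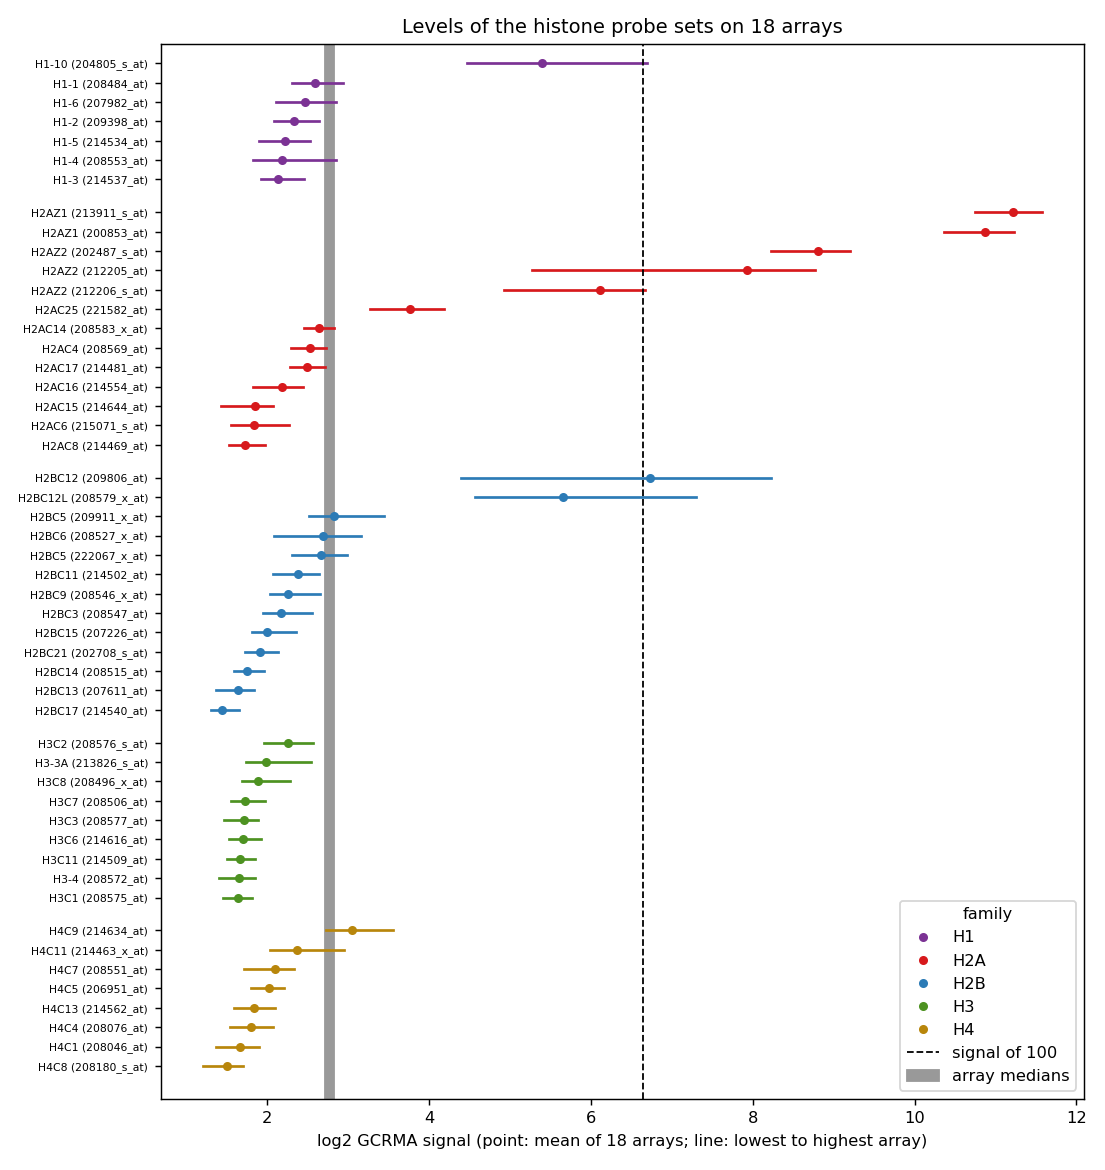
Log2 GCRMA signal (x axis) of each histone probe set (y axis), by family. Points are means of 18 arrays, lines run from the lowest to the highest array, the grey band spans the array medians (2.72 to 2.82) and the dashed line marks a signal of 100. Only 8 of the 50 probe sets reach the dashed line on any array.

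Whether the drugs moved histone transcripts was asked in 10 comparisons with limma, and a probe set was called at a Benjamini-Hochberg adjusted p of at most 0.05 and a log2 fold change of at least 1 in size. Across them 1 member was called in 1 comparison, the H2AZ2 probe set 212205_at, which fell in P at 24 h. That is 1 of 5 members tested, where 14.6% of the 3057 probe sets tested were called in either direction and 11.4% were called lower. None of the 5 was called in P/C at 24 h, where 6.87% of all tested were called and 4.22% lower, or in C at 24 h (0% of all tested). None was called at 8 h in P (0.491%), C (0%), P/C (0.622%) or in the main effect of piroxicam over the 8 h arrays (1.9%), nor in P/C against P (0.164%), P/C against C (0.0981%) or untreated cells at 24 h against 8 h (0.0981%). At an unadjusted limma p under 0.05, 3 of the 5 members passed in P at 24 h (41.2% of all tested), 2 in P/C at 24 h (29.5%), 1 in P/C against P (19.9%) and none in the other 7 comparisons. Of all 50 members 10 passed in P at 24 h in the fit of all probe sets, where 18.3% of all probe sets did, so the members' share was near the background. The 3 comparisons with untreated cells at 24 h share the same 2 untreated arrays. The median log2 fold change of the 5 members was -0.47 in P, -0.26 in C and -0.55 in P/C at 24 h, beside -0.22, -0.10 and -0.12 over all tested probe sets. Over all 50 members it was -0.04, -0.08 and -0.08, beside 0.03, 0.01 and 0.00 over all 22215 probe sets that are not controls. As the RNA came from whole cultures, fewer cells with a transcript and less of it per cell cannot be told apart.

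H2AZ2 encodes H2A.Z.2, and the gene spans 21238 bases at chr7:44826889-44848126. Its probe set 212205_at read 8.61 and 8.16 in untreated cells at 24 h, 6.95, 6.94 and 5.27 in P, 7.91, 8.12 and 8.12 in C, and 7.53 and 6.97 in P/C (log2 signals, replicates in order of number). Every P and P/C array lay below every untreated and C array. The third P array was lowest of all. At 8 h the untreated arrays read 8.34 and 8.67, those of P 8.45 and 8.56, those of C 8.46 and 8.77 and those of P/C 8.38 and 8.62, so that the 4 groups overlapped. In P the mean at 24 h was 6.39 ± 0.97 (SD, n = 3) against 8.38 ± 0.32 (n = 2) in untreated cells, a difference of -2.00 on the log2 scale (limma adjusted p = 0.0019, SE 0.38). Without the third P array it was -1.44. In P/C the mean was 7.25 ± 0.40 (n = 2) and the fold change -1.13 (SE 0.42, adjusted p = 0.0888). It was -1.42 without the P/C array of replicate 1 and -0.85 without that of replicate 3, each of which leaves a single P/C array and so no spread of its own. C differed from untreated cells by -0.34 (95% interval -1.15 to 0.47, adjusted p = 0.683). The difference between P/C and P was 0.86 (adjusted p = 0.224) and that between P/C and C -0.80 (adjusted p = 0.345). The P effect differed between 24 h and 8 h by -2.00 (SE 0.57), which did not pass the adjustment (adjusted p = 0.196), in a comparison that called 0.196% of all probe sets tested.

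The 3 probe sets of H2AZ2 did not move alike. The second, 212206_s_at, reached 100 on too few arrays to be tested with the rest. It read 6.50 and 6.29 in untreated cells at 24 h, 5.27, 5.15 and 4.92 in P, 6.53, 5.80 and 6.29 in C, and 6.57 and 5.52 in P/C. The 3 P arrays were the lowest of the 24 h arrays, and the P/C arrays fell on both sides of the lowest C array. In a limma fit of all 22215 probe sets it fell by 1.28 in P (SE 0.28, adjusted p = 0.0167). That fit called 2 of the 50 members lower in P, both of H2AZ2, against 2.67% of all probe sets. The remaining probe set, 202487_s_at, read 8.85 and 9.11 in untreated cells at 24 h, 9.21, 9.11 and 9.06 in P, 9.18, 8.58 and 8.94 in C, and 8.76 and 8.96 in P/C. These groups overlapped, and P differed from untreated cells by 0.15 (adjusted p = 0.657). The probe sets were then compared within each array, a test added after the values had been seen. The signal of 212205_at minus that of 202487_s_at averaged -2.29 ± 0.94 (SD, n = 5) on the 24 h arrays with piroxicam and -0.75 ± 0.40 (n = 5) on those without, a difference of -1.54 (two-sided exact permutation p = 0.0159, adjusted over 2 such tests 0.0317, the smallest possible p being 0.00794). For 212206_s_at the same difference was -0.89 (exact permutation p = 0.0476, adjusted 0.0476), and it lost its call in 9 of the 12 alternatives run, with p up to 0.103. The annotation lists 5 RefSeq transcripts of H2AZ2, and the transcripts that each probe set matches were not analysed here.

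H2AZ1 encodes H2A.Z.1, and lies at chr4:99948088-99950275. It gave the highest signals of all members. Its probe set 200853_at read 11.02 and 11.19 in untreated cells at 24 h, 10.38, 10.36 and 10.58 in P, 10.93, 10.85 and 10.74 in C, and 10.70 and 10.42 in P/C. All 5 arrays with piroxicam lay below the 5 without. The log2 fold change in P was -0.66 (SE 0.19, limma adjusted p = 0.0166), which passed the limit on p but not that on fold, so that it was not called. Without the untreated array of replicate 2 the adjusted p was 0.144. P/C differed from untreated cells by -0.55 (adjusted p = 0.0937) and C by -0.26 (adjusted p = 0.517). The other probe set, 213911_s_at, read 11.27 and 11.37 in untreated cells at 24 h, 10.84, 10.96 and 10.75 in P, 11.44, 11.19 and 11.09 in C, and 11.07 and 10.75 in P/C. Its lowest C array stood above every array with piroxicam. The fold changes were -0.47 in P (adjusted p = 0.0816), -0.41 in P/C (adjusted p = 0.206) and -0.08 in C (adjusted p = 0.874). At 8 h all arrays of 213911_s_at lay between 11.15 and 11.58 and all of 200853_at between 10.82 and 11.23, and the groups overlapped. The H2AZ1 probe sets had a Pearson r of 0.92 over the 18 arrays, given as a description of arrays that share groups. Between 212205_at and 212206_s_at Pearson r was 0.82 over the 18 arrays, but -0.67 over the 8 h arrays and 0.82 over the 24 h arrays. Between 212205_at and 202487_s_at it was -0.50 over the 18 arrays, 0.47 at 8 h and -0.37 at 24 h. Neither pair kept its sign at both times.

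**Figure D2:**
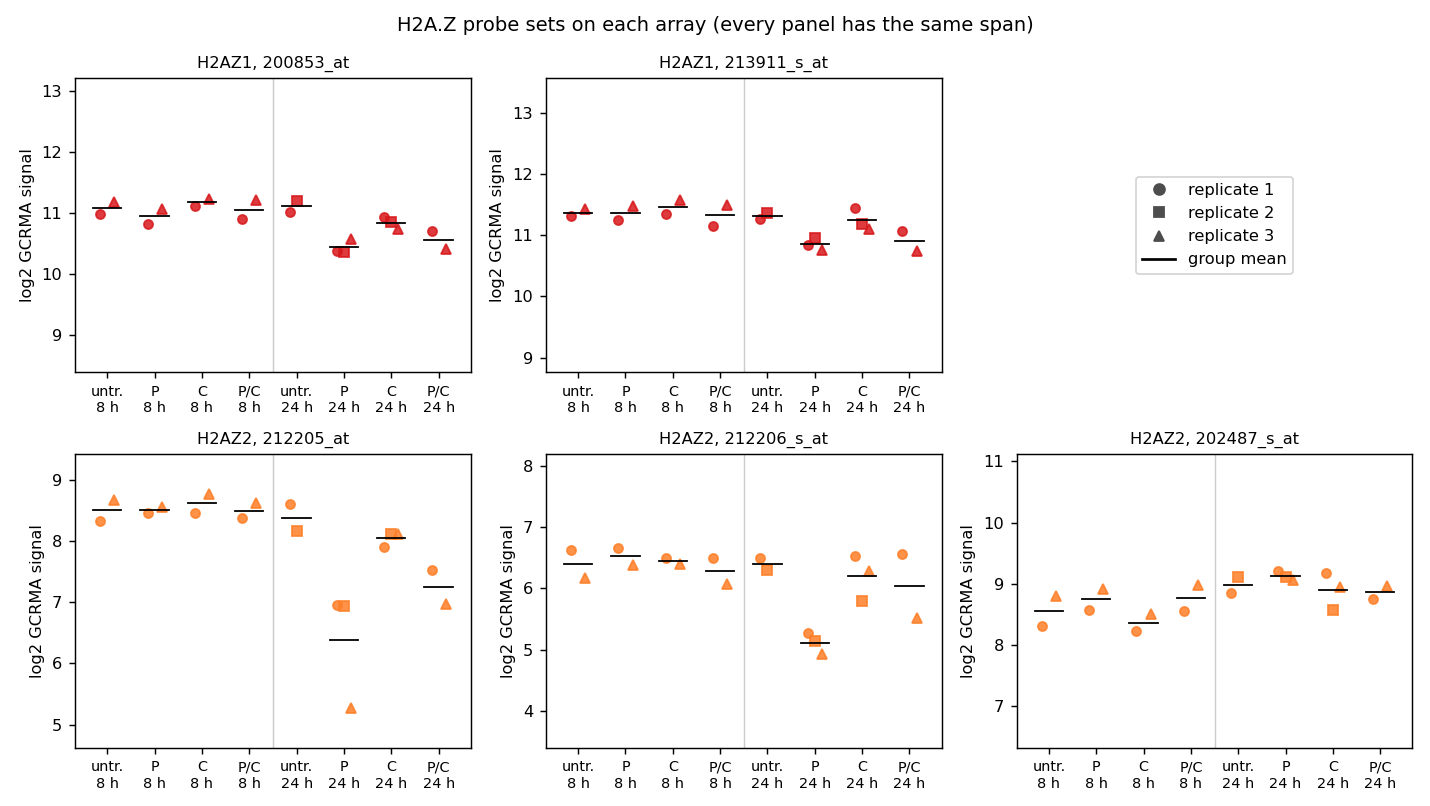
Log2 GCRMA signal (y axis) of the H2AZ1 and H2AZ2 probe sets by group and time (x axis). Each point is 1 array, its shape gives the replicate number, black lines are group means and all panels have the same span. At 24 h 212205_at and 212206_s_at are lowest in P, 202487_s_at overlaps between groups, and both H2AZ1 probe sets shift by less than 1 log2 unit.

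H2BC12 is a replication-dependent H2B gene in the chromosome 6 cluster, at chr6:27138293-27146858. At 8 h its signal differed more between replicate numbers than between treatments. Its probe set 209806_at read 8.23 in replicate 1 and 6.71 in replicate 3 of untreated cells at 8 h, 8.20 and 6.71 in P, 7.91 and 6.48 in C, and 7.91 and 6.85 in P/C. Replicate 1 was above replicate 3 in each of the 4 groups, by 1.07 to 1.52. H2BC12L, a near-identical H2B gene on chromosome 21 (chr21:43565182-43565648), followed it. Its probe set 208579_x_at read 7.29 and 5.22 in untreated cells at 8 h, 7.0 and 5.56 in P, 6.93 and 5.06 in C, and 7.04 and 5.73 in P/C. The probe sets may share transcripts and are not independent. Pearson r between them was 0.99 over the 8 h arrays and 0.36 over the 24 h arrays.

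The replicates of the 8 h arrays were therefore compared in a limma fit with treatment and replicate as terms, added after the values had been seen. H2BC12 differed by 1.38 (SE 0.13, adjusted p = 0.00316), from 8.06 ± 0.18 in replicate 1 to 6.69 ± 0.15 in replicate 3 (n = 4 each), where 0.851% of the 3057 probe sets were called. In the same fit over all probe sets H2BC12L differed by 1.67 (SE 0.14, adjusted p = 0.0185), from 7.06 ± 0.16 to 5.39 ± 0.31. Over all 50 members 10 had every replicate 1 array above every replicate 3 array at 8 h, against 4.15% of all probe sets. Of these 10, 7 were among the 13 H2B probe sets (H2BC12, H2BC12L, H2BC17, both of H2BC5, H2BC6 and H2BC9), 2 were of H1 (H1-1 and H1-2), 1 was 212206_s_at of H2AZ2, and none was of H3 or H4. Apart from H2BC12, H2BC12L and 212206_s_at these probe sets lay near background, and several H2B probe sets can hybridise with the same transcripts. The count took that direction only. Replicate 1 lay wholly below replicate 3 at 8 h in 212205_at of H2AZ2 (at most 8.46 against at least 8.56). The same held for 213911_s_at of H2AZ1 and for H3C2, which was near background. The share of all probe sets in this other direction was not counted. What the replicate numbers share is not stated in the sources used here, so its part in these values was not tested. Within replicate 1 the drugs moved H2BC12 from its untreated value by -0.02 (P), -0.32 (C) and -0.31 (P/C), and within replicate 3 by 0.00, -0.22 and 0.14.

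At 24 h 209806_at read 6.42 and 7.12 in untreated cells, 6.30, 6.93 and 6.13 in P, 6.39, 6.51 and 5.47 in C, and 4.40 and 6.46 in P/C. A single P/C array, that of replicate 1, lay more than 1 log2 unit below all others. The fold changes were -0.32 in P (adjusted p = 0.741), -0.65 in C (adjusted p = 0.64) and -1.34 in P/C (SE 0.70, adjusted p = 0.21), none of them called. The P/C value rests on that array, since it was -0.31 without it and -2.37 without the P/C array of replicate 3, each time with 1 P/C array left. It also moved between -1.69 and -0.99 when either untreated array was left out. For 208579_x_at the arrays read 5.99 and 5.95 in untreated cells, 4.65, 5.22 and 4.74 in P, 4.65, 5.55 and 4.57 in C, and 5.22 and 5.51 in P/C. Every treated array was below both untreated arrays. The spread at 8 h was wider than these gaps, but it lay between replicate numbers. Group SDs of this probe set ran from 0.92 to 1.47 at 8 h and from 0.02 to 0.54 at 24 h. The fit pools both times without a replicate term, so its p-values do not settle the gaps at 24 h. In the fit of all probe sets the fold changes were -1.10 in P (SE 0.65, adjusted p = 0.419), -1.04 in C (adjusted p = 0.754) and -0.61 in P/C (adjusted p = 0.819).

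**Figure D3:**
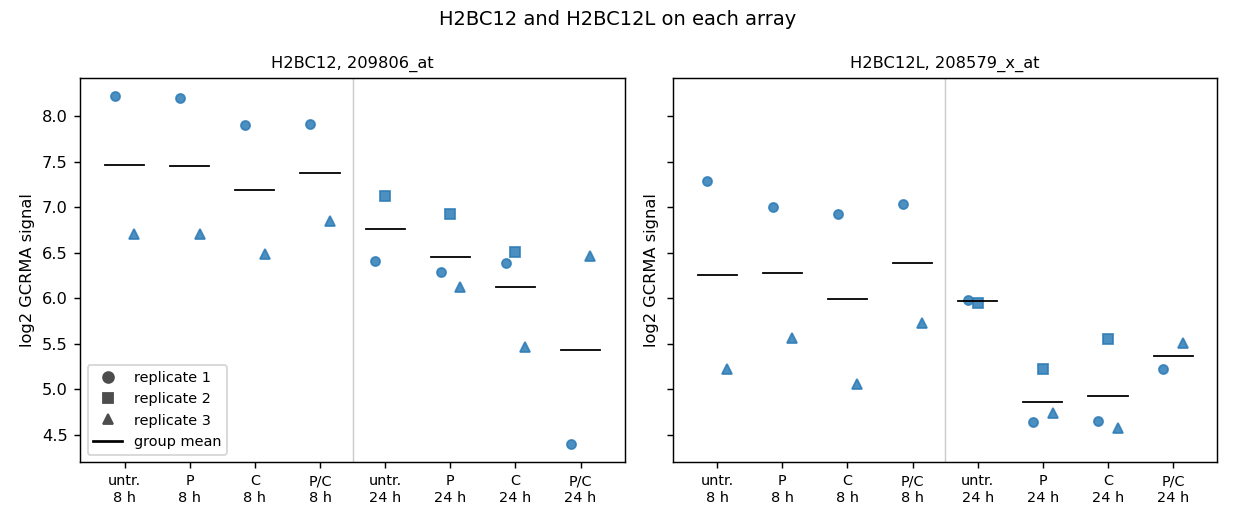
Log2 GCRMA signal (y axis) of H2BC12 and H2BC12L by group and time (x axis). Each point is 1 array, its shape gives the replicate number and black lines are group means. At 8 h replicate 1 lies above replicate 3 in every group of both panels, by 1.07 to 1.52 for H2BC12.

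H1-10 encodes the replication-independent linker histone H1.10 and lies at chr3:129314771-129316286. Its probe set 204805_s_at read 5.80 and 4.56 in untreated cells at 24 h, 6.69, 5.66 and 6.12 in P, 6.58, 4.72 and 5.38 in C, and 5.70 and 5.65 in P/C. At 8 h it read 4.89 and 4.46 in untreated cells, 5.48 and 5.19 in P, 4.53 and 4.85 in C, and 5.79 and 5.10 in P/C. The arrays with piroxicam were above those without at 8 h, while at 24 h the groups overlapped. It did not pass the filter, and in the fit of all probe sets it differed by 0.98 in P at 24 h (SE 0.47, adjusted p = 0.298) and by 0.71 in the main effect of piroxicam at 8 h (adjusted p = 0.579). That fit pools the spread of both times without a replicate term, and the group SDs reached 0.94 at 24 h and 0.49 at 8 h. The other 42 members had means between 1.44 and 3.77, and no array read above 4.18. Their fold changes at 24 h lay between -0.72 and 0.45, and the smallest adjusted p in the fit of all probe sets was 0.107. None of these changes passed the adjustment, and at this signal nothing follows for the transcripts of these 42 members.

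**Figure D4:**
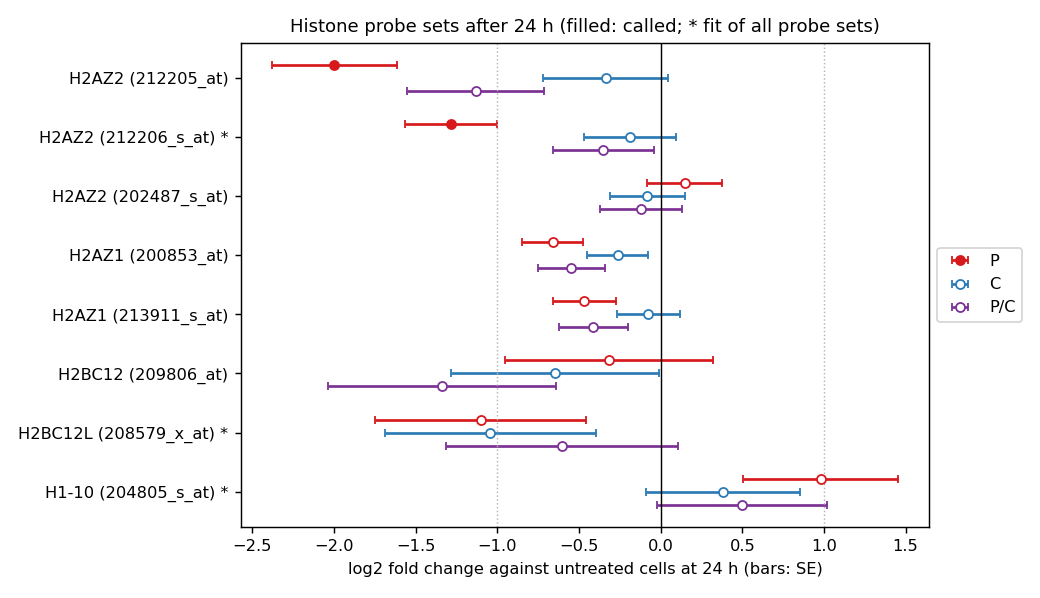
Log2 fold change against untreated cells at 24 h (x axis) of the 8 histone probe sets that reached a signal of 100 on at least 1 array (y axis), for P, C and P/C. Points are limma estimates, bars are their SE, filled points were called, and an asterisk marks probe sets taken from the fit of all probe sets. The filled points are the P values of 212205_at (-2.00) and 212206_s_at (-1.28).

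Genes that handle histones were given as lists, chosen with earlier results of these data known. Their counts are therefore no independent comparison with all tested probe sets. The lists hold 14 genes of histone mRNA processing and transcription, 22 chaperones and enzymes that acetylate new histones, and 5 histone variants outside the rule, of which 3, 11 and 2 were tested. In P at 24 h 7 of the 16 fell and none rose, where 11.4% of all tested probe sets were called lower, with medians of -0.88, -0.997 and -1.02 in the 3 lists, beside -0.22 over all tested probe sets. Each gene was read from its brightest probe set alone. Of the 7 only HAT1 has no other, and the other probe sets of the rest were not analysed here. Among the 11 chaperones and enzymes 5 fell. HAT1, which acetylates new histone H4, fell from 10.17 ± 0.04 (SD, n = 2) to 8.75 ± 0.21 (n = 3), a difference of -1.42 on the log2 scale (SE 0.24, adjusted p = 0.001). The H3-H4 chaperone ASF1A gave -1.50 (SE 0.35, adjusted p = 0.00561) and RBBP4, a subunit of a chromatin assembly factor, fell by 1.32 (SE 0.30, adjusted p = 0.00484). ANP32E, which removes H2A.Z from nucleosomes, fell by 1.22 (SE 0.30, adjusted p = 0.00778). The fifth was NASP, a chaperone of H3-H4 and of linker histones, named here after its value was seen (-1.05, adjusted p = 0.00221). MCM2, a helicase subunit that also binds H3-H4, missed the fold limit at -0.997 (adjusted p = 0.033). SUPT16H and SSRP1, the subunits of the H2A-H2B chaperone FACT, gave -0.06 and 0.06.

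Of the mRNA processing genes SRRT, which works with the cap-binding complex, fell by 1.02 in P (SE 0.25, adjusted p = 0.00791). SLBP, the protein that binds the stem-loop of histone mRNA, differed by -0.67 (adjusted p = 0.0328) and was not called; it was also chosen after its value was seen. H2AX, the variant phosphorylated at DNA breaks, also fell, with a difference of -1.50 (SE 0.38, adjusted p = 0.00915), and in the main effect of piroxicam at 8 h it fell by 1.09 (adjusted p = 0.043). In P/C at 24 h 2 of the 16 fell, where 4.22% of all tested were called lower. HAT1 fell by 1.10 (SE 0.26, adjusted p = 0.0218) and ANP32E fell by 1.23 (SE 0.33, adjusted p = 0.0319). The smaller count than in P is not itself a difference between P/C and P. In P/C against P none of the 16 was called (0.164% of all tested), and their smallest limma adjusted p was 0.114. The medians of the 3 lists there were 0.74, 0.54 and 0.21, beside 0.12 over all tested probe sets. In C at 24 h none of the 16 was called by limma, where 0% of all tested probe sets were called. Of the 16 genes 1, the H3.3 chaperone HIRA, named after its value was seen (-0.82), had an unadjusted p of at most 0.05. Of all tested probe sets 13.8% had a p under 0.05 there, so neither count sets these genes apart. These counts rest on few arrays. Without the untreated array of replicate 1 the count in P was 3 and that in P/C 0, and the latter was also 0 without the untreated array of replicate 2 or the P/C array of replicate 3.

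**Figure D5:**
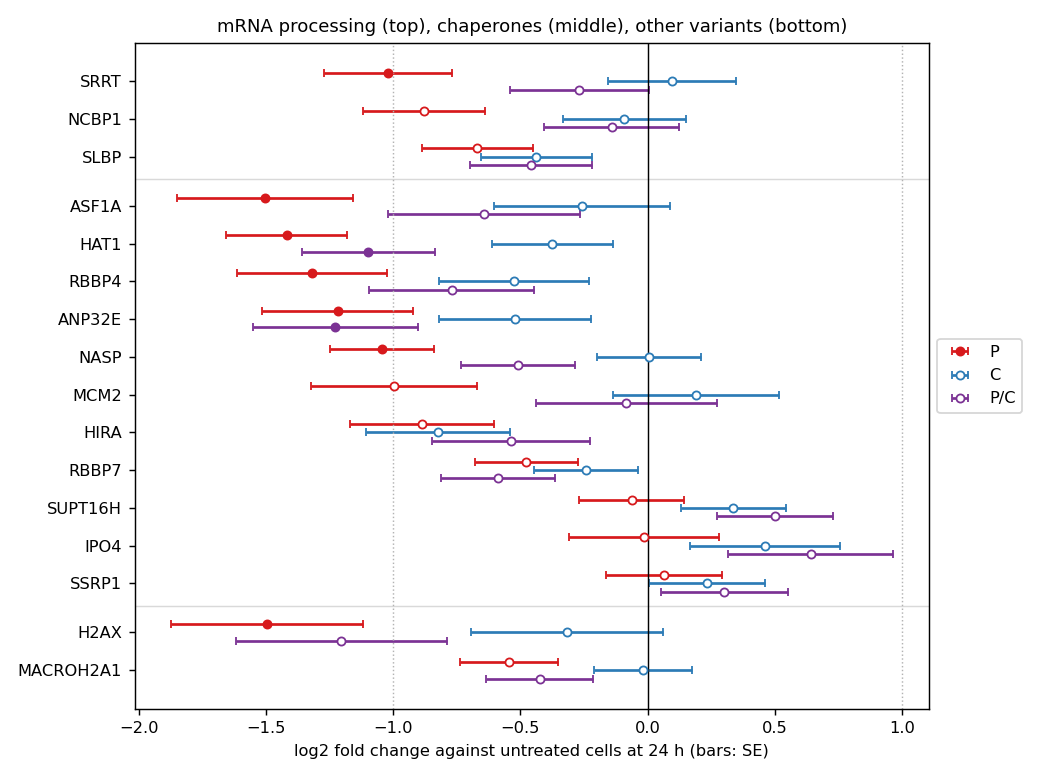
Log2 fold change against untreated cells at 24 h (x axis) of the tested genes that process histone mRNA (top), act as chaperones or acetylate new histones (middle) or encode other variants (bottom), for P, C and P/C. Points are limma estimates, bars are their SE and filled points were called. Filled points are 7 for P, 2 for P/C and none for C.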

How the data were processed

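RNA was measured on 18 HGU133A arrays, grouped by the labels. The deposited values are log2 GCRMA signals, made by the authors after arrays with outlying intensities were dropped (version not given in the sources used here), and were used unchanged. Single gene symbols came from the platform annotation (19071 probe sets). The members, lists and comparisons were chosen with earlier results of these data known. Array values are given for called members, for replication-independent genes and for the 2 brightest probe sets of each family, those near background as ranges. Of the listed genes that handle histones, the rule was to name at most 4 called in each list and comparison, by size of change. NASP, MCM2, SUPT16H, SSRP1, SLBP and HIRA are named outside this rule. Each listed gene is represented by its brightest probe set.

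As in the study's methods, a probe set had to reach an IQR of 0.25 and, on 25% of the arrays or more, a signal of 100, and 3057 did once the 68 controls were set aside. The IQR step kept 10388 probe sets, and both steps kept 3089 with controls included. The paper's methods give other counts at both steps, so the tested set is not the paper's. The reason was not tested. limma 3.58.1 in R 4.3.3 was fitted to all arrays with 1 mean per group (10 residual degrees of freedom), two-sided, with Benjamini-Hochberg adjustment over all probe sets tested. Members that failed the filter came from a fit of all 22215 probe sets. The test was checked on simulated data. Arrays with equal numbers departed from the group means in the same way at 8 h (6 distinct correlations from 0.20 to 0.66, all over 0.1), while at 24 h 5 of 12 correlations, which ran from -0.22 to 0.39, were over 0.1, so that only the 8 h numbers were taken to pair arrays. The number of arrays limits the precision. H3-3B was not analysed here, as no probe set carried its symbol alone. Alternatives were other filters, normalizations and weights, the replicate block, fewer groups and leaving out each array.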

Additional observations from a re-analysis of the deposited data

How the results depend on the processing

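The number of histone probe sets called in P at 24 h was 1 in 14 of 16 alternatives and 2 in the others. With no filter 212206_s_at was added, and with no fold limit the H2AZ1 probe set 200853_at was added. In the other 9 comparisons it was 0 in all alternatives run. For 212205_at in P at 24 h the log2 fold change ranged from -2.28 to -1.44 and the adjusted p from 0.00106 to 0.023 over 14 alternatives, and each of them called it. With the replicate block in a fit of all 18 arrays it was -1.76 (adjusted p = 0.00308), and 1 member was called, as without the block. The replicate block, on all arrays or on the 8 h arrays alone, changed no call of a member. For 200853_at the adjusted p in P at 24 h ranged from 0.00605 to 0.144, and for 213911_s_at from 0.0358, with array weights, to 0.304. The difference in H2BC12 between the replicates at 8 h ranged from 1.33 to 1.48 and was called in all 11 alternatives. Chosen after seeing the data, 12 alternatives for H2BC12 in P/C at 24 h gave -2.37 to -0.31, none called. The exact permutation p for 212205_at minus 202487_s_at ranged from 0.00794 to 0.0286 over 12 alternatives. Of the 16 genes that handle histones, 3 to 8 were called in P, 0 to 1 in C and 0 to 3 in P/C, and those in P/C fell to 0 also with array weights and with only the arrays compared. The causes were not tested. Signals near background limit what can be said of 42 of the 50 members.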

Other observations

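Probe sets with several histone symbols were outside the rule, and no gene is named from them. There were 28, of which 5 passed the filter. Of these 28, 8 carry an H3.3 symbol among others. The brightest, 209069_s_at, had a mean of 11.13 and differed by -0.61 in P at 24 h (limma adjusted p = 0.0203), under the fold limit. Other H3.3 probe sets that passed the filter gave -0.53, -0.40 and -0.23 there, none called. The H3.3 probe set 211998_at did not pass it. At 8 h its untreated arrays read 6.67 and 6.80, P 4.72 and 4.42, C 7.20 and 6.37, and P/C 4.76 and 4.98. At 24 h they read 6.31 and 6.19, P 3.79, 3.41 and 3.41, C 5.95, 5.19 and 5.25, and P/C 5.64 and 3.40. Arrays with piroxicam lay below those without at 8 h, while C and P/C overlapped at 24 h. The brightest without an H3.3 symbol, 205967_at, carries 14 symbols of H4 genes. It read 9.67 and 9.78 in untreated cells at 24 h, 8.47, 8.79 and 8.64 in P, 8.41, 9.30 and 8.76 in C, and 9.08 and 8.33 in P/C. All treated arrays lay below both untreated arrays. The log2 fold change was -1.09 in P (limma adjusted p = 0.00915), -1.02 in P/C (adjusted p = 0.0422) and -0.90 in C (adjusted p = 0.237). At 8 h the untreated arrays read 9.29 and 9.29, those of P 8.76 and 9.33, those of C 9.06 and 8.72 and those of P/C 8.89 and 9.13. The 1 P array of replicate 3 lay above both untreated arrays there. This H4 signal is the only one of the 20 probe sets with several symbols of cluster genes that passed the filter.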
